A study of Mus musculus with 2 samples.

Results

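The subject was a set of 771 unannotated transcript forms of the mouse heart that the deposited tables class as new combinations of known splice sites, out of 109378 distinct intron chains seen in the series. Long-read RNA sequencing is meant to read a cDNA from end to end, so a complete read shows which introns were removed together from 1 molecule. The RNA came from hearts taken at 14 days of age from females of B6CASTF1/J, a cross of inbred strains, in 1 group of 2 libraries, replicates 1 and 2, each begun from 2 µg of total RNA with spike-in RNA added. The labels call them biological replicates but give both the same donor and the same library description, which names several females, while the tissue label names several females for replicate 1 and a single female for replicate 2. Alleles of the parental strains were not separated. As separate animals are not named for each library, p-values cover counting error only, and what spread there is may be technical.

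A form was chosen by its class and its read counts. The authors' deposited tables had to call it a new combination in both libraries, the intron chain had to match, and at least 5 reads had to support it in each. Of 5137 matched chains, 814 had these counts. Of these, 43 were left out because all their new introns shared 1 end with an annotated intron of the gene and had the other end within 12 bases of it. Forms with no new intron at all were kept. The 771 forms belonged to 592 genes, of which 478 had 1 form, 80 had 2 and 34 had 3 or more. The counts that chose the forms are given below as a description. At the edge of the rule, 185 forms had 4 reads in the lower library, such as Colgalt1 with 4 and 14, and 157 had 5, such as Gpt with 5 and 17. A form of Eno3 with a shift of 12 bases was left out at 63 and 49 reads, and one of Pdlim5 with a shift of 14 was kept at 174 and 182.

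Splicing removes introns between a donor site at the 5′ end of the intron and an acceptor site at its 3′ end. Cells vary the product by skipping or adding an exon, by using another donor or acceptor, by keeping an intron, or by starting and ending the RNA at other exons. Striated muscle is known for many such switches, and several of them exchange proteins of the young heart for those of the adult. An annotation lists whole transcripts, so a form made only of listed introns is still new when no listed transcript holds them all.

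The sequences of a few forms are shown first, because their differences are only a few bases or a single exon. All were read from the GENCODE M21 transcripts on mm10, 5′ to 3′ on the gene's strand, with 20 bases of exon on either side where the forms agree. Capitals mark bases that the form or the annotated model holds and the other lacks. In Oaz1, an antizyme that restrains polyamine synthesis, the form held 4 bases (chr10:80828292-80828295) that the annotated model leaves out, and the antizyme Oaz2 held the same 4 letters (chr9:65686269-65686272).
Oaz1 form: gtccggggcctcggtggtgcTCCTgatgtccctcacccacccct
Oaz1-201: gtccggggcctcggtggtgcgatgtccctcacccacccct
Oaz2 form: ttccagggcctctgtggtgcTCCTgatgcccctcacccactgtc
Oaz2-201: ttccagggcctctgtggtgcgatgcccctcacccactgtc
Antizyme is made by a programmed shift of the ribosome's frame, and these bases lie at the stop codon it passes. In Myh6, the alpha heavy chain of cardiac myosin, in Srl, the sarcalumenin of the sarcoplasmic reticulum, and in Ctbp1, a transcriptional corepressor, the forms took an acceptor 3 bases upstream and so held 1 more codon.
Myh6 form 1 (chr14:54942002-54942004): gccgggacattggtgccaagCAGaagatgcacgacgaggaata
Myh6-201: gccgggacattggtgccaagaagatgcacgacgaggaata
Srl form 1 (chr16:4493878-4493880): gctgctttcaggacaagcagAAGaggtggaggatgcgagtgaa
Srl-202: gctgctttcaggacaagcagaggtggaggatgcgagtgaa
Ctbp1 form 1 (chr5:33248684-33248686): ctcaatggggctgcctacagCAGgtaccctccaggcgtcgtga
Ctbp1-211: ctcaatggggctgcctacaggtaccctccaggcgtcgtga
In Phb2, the prohibitin 2 of the inner mitochondrial membrane, and Sept7, a septin of the cytoskeleton, the forms lacked annotated exons of 6 and 5 bases. In Dnm2, the dynamin 2 of membrane scission, the form lacked 12 bases.
Phb2 form 1: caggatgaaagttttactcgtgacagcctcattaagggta
Phb2-201 (chr6:124716425-124716430): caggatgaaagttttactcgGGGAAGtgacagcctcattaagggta
Sept7 form 1: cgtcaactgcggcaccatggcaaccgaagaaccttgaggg
Sept7-201 (chr9:25265302-25265306): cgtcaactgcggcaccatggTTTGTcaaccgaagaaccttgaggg
Dnm2 form 1: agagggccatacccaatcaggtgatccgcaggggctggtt
Dnm2-201 (chr9:21490658-21490669): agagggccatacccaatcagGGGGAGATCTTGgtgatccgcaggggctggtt
Itgb1, the beta 1 chain of integrins, gained an exon of 81 bases, and Eno1, an enolase of glycolysis, carried 1 exon of 59 bases in place of another of 59.
Itgb1 form 1 (chr8:128726983-128727063): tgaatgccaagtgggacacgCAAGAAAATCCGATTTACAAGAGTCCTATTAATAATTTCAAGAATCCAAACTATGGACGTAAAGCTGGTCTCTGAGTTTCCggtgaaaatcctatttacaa
Itgb1-201: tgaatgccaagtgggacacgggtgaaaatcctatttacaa
Eno1 form 1 (chr4:150241767-150241825): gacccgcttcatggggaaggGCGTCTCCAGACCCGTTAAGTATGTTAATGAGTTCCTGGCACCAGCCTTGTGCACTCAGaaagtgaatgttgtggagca
Eno1-202 (chr4:150242122-150242180): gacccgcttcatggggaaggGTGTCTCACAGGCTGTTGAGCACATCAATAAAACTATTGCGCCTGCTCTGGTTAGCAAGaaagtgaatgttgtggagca

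The libraries held 896941 and 972159 reads. Without spike-ins and genomic-class reads, 858071 and 926560 were left, so 1 read was worth 1.17 and 1.08 CPM, the counts scaled to a total of 1000000. All 8 heart muscle markers were detected, at a summed 51146 and 53654 CPM. Blood cell markers summed to 12800 and 11199 CPM, fibroblast markers to 6377 and 6192, and endothelial markers to 246 and 233. The 3 lung markers summed to 132 CPM in replicate 1 and 8.63 in replicate 2. Only 1 of them was detected, meaning at least 3 reads in each library. None of 4 skeletal muscle or 3 liver markers was detected. In bulk tissue, fewer cells of a type and less RNA per cell cannot be told apart.

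The 771 forms took 25327 and 27065 reads. This was 2.94% ± 0.0216 (SD, n = 2) of the reads left without spike-ins and genomic-class reads. It was 52.3% and 53.2% of the reads the tables put in the class. The median form had 10 reads in replicate 1 and 11 in replicate 2, with ranges of 5 to 4220 and 5 to 4703. The reads were concentrated: the 10 forms with the most held 43.5% of them, while 245 forms had 5 to 9 reads in both libraries. At least 100 reads in both were reached by 25. On the log2(CPM + 1) scale, the median form differed, as replicate 2 minus replicate 1, by -0.09 with an SD of 0.50, against a median of -0.0076 and an SD of 0.46 over all 10575 spliced models with such counts.

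**Figure D1:**
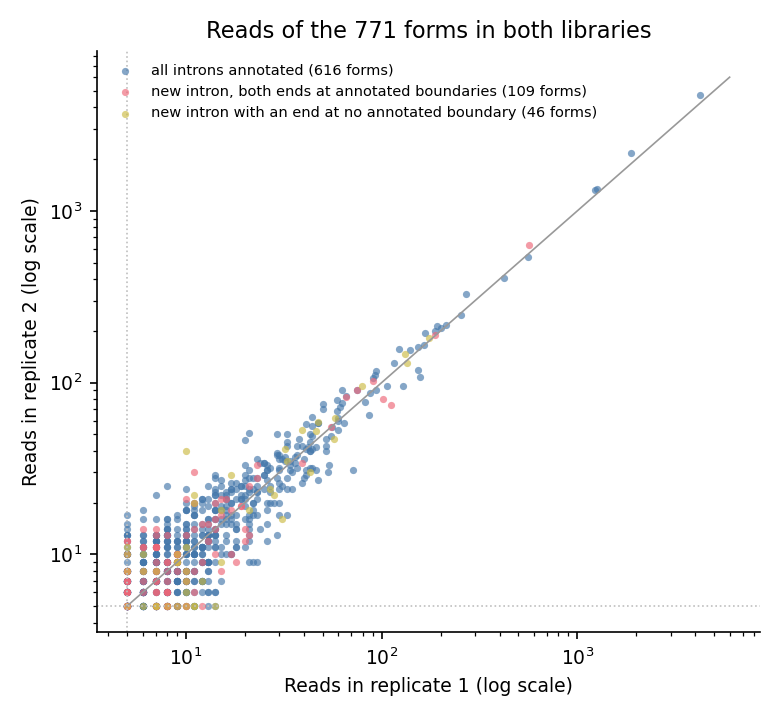
Reads of each form in replicate 1 (x axis) and replicate 2 (y axis), both on log scales, with 1 point per form coloured by the kind of introns it holds. The grey line marks equal reads and the dotted lines the minimum of 5. Points range from 5 reads to the Myh6 form with 4220 and 4703, and spread widest at low counts.

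Many of the forms were a small part of their gene. In the 716 forms whose gene had at least 20 reads in each library, the median share of the gene's reads was 12.8%, with quartiles of 4.84% and 24.3%. For comparison, annotated spliced models with the same minimums had a median share of 73.0% (5890 models) and models with a new splice site one of 7.47% (345 models). The median difference of a form's share between the libraries was 2.22 percentage points. Shares were under 10% for 295 forms, over 50% for 38 and over 90% for 5. In 120 of these 716 forms, no other model of the gene had more reads in either library. Without the minimum of gene reads, this held for 163 forms. Against the annotated model with the fewest differing introns, 367 of 769 forms had more reads in both libraries, 342 had fewer in both, and in 166 that annotated model had no read in either.

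The 5 forms with a mean share over 90% were of different kinds. The Oaz1 form had 1870 of 1929 gene reads in replicate 1 and 2170 of 2269 in replicate 2, shares of 96.9% and 95.6%, and the annotated Oaz1-201 had 0 in both. The Oaz2 form had 560 of 621 and 535 of 580 reads, shares of 90.2% and 92.2%. Both antizyme forms differed from the annotated model only in a gap of 4 bases that the form left unspliced. Annotated gaps under 30 bases were counted as a kind of their own, apart from kept introns. Phb2 without the exon of 6 bases had 270 and 326 reads, or 96.8% and 97.9%. Sept7 without the exon of 5 bases had 188 reads in each library, or 91.7% and 90.8%, while the annotated Sept7-201 with that exon had 0 in both. Gbe1, the branching enzyme of glycogen synthesis, had 87 reads in each library for a form with several changes in 1 place, or 94.6% and 93.5%. In each of these genes the libraries differed by less than 2.22 points. Whether an aligner places exons of 5 or 6 bases was not tested.

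**Figure D2:**
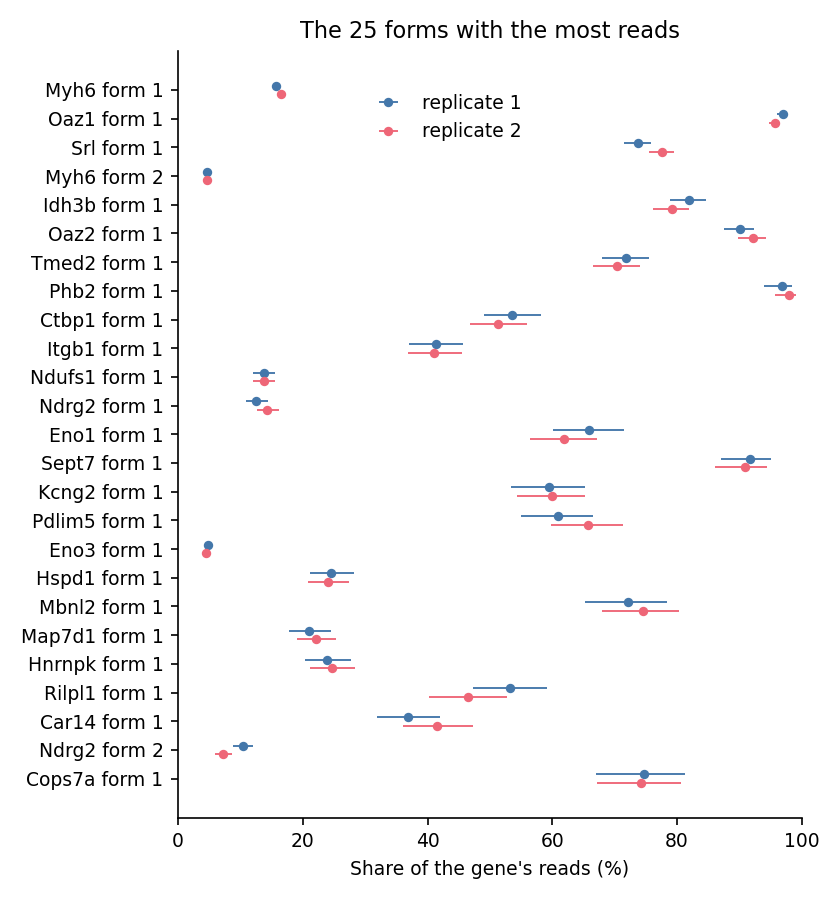
Share of the gene's reads (x axis, percent) for the 25 forms with the most reads (y axis), in replicate 1 and replicate 2, with exact 95% binomial intervals as bars. Myh6 form 2 and Eno3 form 1 lie lowest, under 5%, and Oaz1 and Phb2 highest, over 95%.

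Each form was described by how it differed from the annotated model of the gene with the fewest differing introns. Another first exon was the most frequent kind with 115 forms, followed by a skipped exon with 113, another acceptor with 99, more exons at the 5′ end with 85, another donor with 81, an added exon with 78 and more exons at the 3′ end with 64. Forms with several kinds numbered 41, with a kept intron 28, with an intron removed from an annotated exon 27, with several changes in 1 place 20 and with another last exon 11. In 4 forms of 3 genes, among them Oaz1 and Oaz2, an annotated gap under 30 bases was not spliced. By reads, another acceptor led with 35.9% and 36.4% of all member reads. Myh6 form 1 alone held 4220 of these 9083 reads in replicate 1 and 4703 of 9857 in replicate 2. The forms with an unspliced gap came next, with 9.90% and 10.2%. Forms with a kept intron led their gene in no case.

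**Figure D3:**
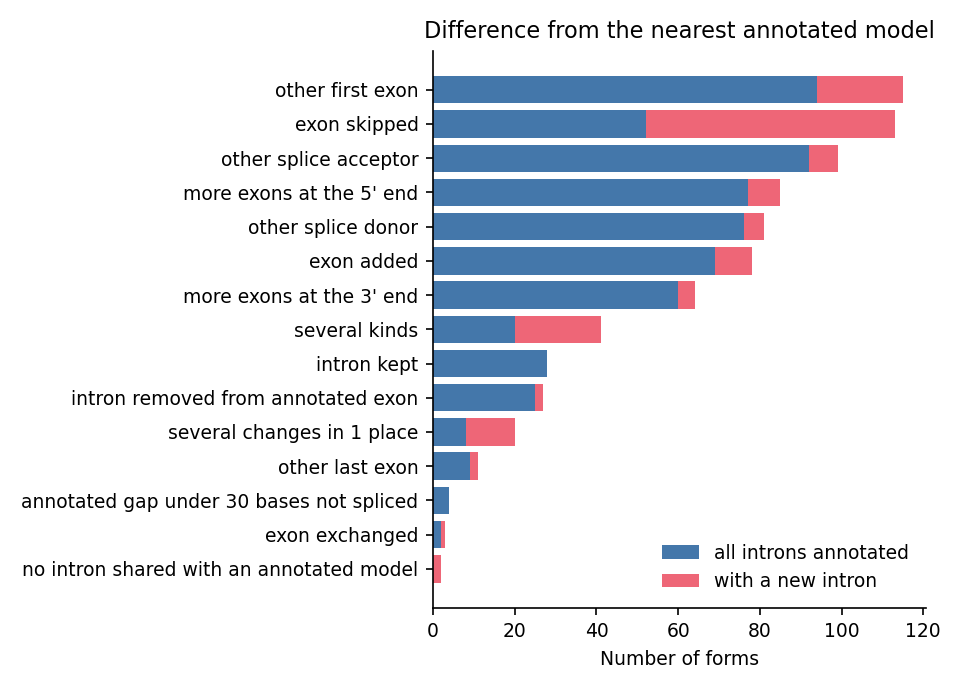
Number of forms (x axis) for each kind of difference from the nearest annotated model (y axis), split into forms whose introns are all annotated and forms with a new intron. Forms with a new intron are most numerous among those with a skipped exon, 61 of 113.

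Among the forms kept by the rule, other acceptors were mostly very near. Of 111 such events, 52 moved the acceptor by exactly 3 bases and 66 by at most 12, and the median was 4 bases. Donors moved farther: of 89 events, 2 were of 3 bases and 17 of at most 12, with a median of 67. Events were counted per form, so a site shared by several forms of a gene counts again. The rule had left out 43 forms for new introns with shifts of up to 12 bases, so it bears on these distances. Whether those 43 moved donors or acceptors was not counted. In the first Myh6 form, with 4220 reads in replicate 1 and 4703 in replicate 2, the acceptor at the CAG shown above was joined to the chain of Myh6-201, and in the second, with 1235 and 1314, to that of Myh6-205. Over all models, the intron ending there was used by 30.1% and 29.9% of the 26730 and 28423 reads that spanned it or an intron sharing an end. The upstream acceptor was favoured in Srl, where the form had 1263 of 1714 and 1341 of 1728 gene reads and the intron's use was 75.7% and then 79.8%. In Ctbp1 the form had 255 and 248 reads and a share of 53.6% and 51.3%, and its intron was used by 83.5% and 83.8%. None of these 3 introns passed the test between libraries described below. Idh3b, the beta subunit of the mitochondrial isocitrate dehydrogenase, differed by a far acceptor: 569 and 636 reads joined annotated sites 825 bases apart (chr2:130279438-130280262), an intron in no annotated model of the gene, with a share of 81.9% and 79.2%. The last 20 bases before and the first 20 after this junction are given below, with no capitals because the form lacks bases of Idh3b-201 here and gains none.
Idh3b form 1: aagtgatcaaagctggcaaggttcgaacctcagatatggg

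Of the other forms with a changed site, Hspd1, the mitochondrial chaperonin, took a donor 210 bases away in 153 of 623 and 161 of 670 reads, and Cops7a, a subunit of the COP9 signalosome, took one 117 bases away in 115 of 154 and 130 of 175. Dmpk, the kinase of myotonic dystrophy, had 6 forms. The first, with 75 and 90 reads, used an acceptor 4 bases away, and the second, with 52 and 43, a donor 15 bases away. All 4 counts lie well above the minimum of 5. Nlrx1, a mitochondrial protein of innate immunity, used an acceptor 8 bases away in 23 of 30 and 25 of 33 reads.

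Added exons were short and mostly kept the frame. The 90 distinct exons had a median length of 76.5 bases, from 21 to 182, and the length was a multiple of 3 in 66 of them (73.3%). Within annotated coding sequence it was so in 54 of 58 (93.1%). The 131 skipped exons had a median of 98 bases, and 74 (56.5%) were multiples of 3, or 70 of 112 (62.5%) in coding sequence. Among 52886 annotated internal exons of genes with at least 20 reads in each library, 40.1% were multiples of 3, and 41.1% of the 46052 coding ones. These are descriptions of exons that share genes and forms, and no test was made.

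Itgb1 had the most reads of any form with an added exon, 213 of 515 in replicate 1 and 215 of 523 in replicate 2. The exon of 81 bases (chr8:128726983-128727063) lies partly in annotated coding sequence and gives a chain of 801 codons, against 798 for the annotated Itgb1-201, with another cytoplasmic end. This is the exon of the beta 1D chain, the form of striated muscle. Itgb1-201 itself had 256 and 247 reads. Dctn1, the large subunit of dynactin, added an exon of 21 bases in 90 and 102 reads. Mff, the receptor that recruits the fission dynamin to mitochondria, had 6 forms with 55 and 49 reads in the first, which added 75 bases (chr1:82737013-82737087). The fifth and sixth Mff forms held that exon and another of 159 bases, with 12 and 6 reads and with 6 and 9. Camk2d, the calmodulin kinase of excitation and contraction, added an exon of 89 bases in 39 of 182 and 43 of 222 reads, and that form led its gene. Ndufs1, a subunit of respiratory complex I, added 104 bases before the start codon in 201 of 1465 and 208 of 1511 reads, and the coding sequence was that of Ndufs1-201. Rilpl1 added 88 bases in 154 and 119 reads.

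Skipping removed 111 bases from Map7d1, a microtubule-associated protein, in 123 of 587 and 157 of 712 reads, and 288 bases from Trim55, a ubiquitin ligase of the sarcomere, in 75 and 90 reads. Both lengths are multiples of 3. The intron that skips the Trim55 exon was new and was used by 83 of 149 and 106 of 200 reads (55.7% and 53.0%). Dnm2 lost the 12 bases shown above in 16 and 15 reads of the first of its 6 forms and in 6 and 7 of the fifth. The smallest skipped exon had 3 bases, and 10 were under 30. For these too, including the 12 bases of Dnm2, whether an aligner places such short exons was not tested. Nexn, the nexilin of the Z-disc, skipped 42 bases in 50 and 70 reads of a form that also had more exons at the 5′ end. In Ltbp4, of the extracellular matrix, 8 and 5 reads skipped 147 bases.

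Where the frame could be assessed, changes of the first exon left most proteins as annotated. Ndrg2, a protein abundant in heart and brain, had 191 and 214 reads in the first such form and 157 and 108 in the second, of 1520 and 1495 gene reads. Their coding sequences were those of Ndrg2-202 and Ndrg2-201. The second form's share was 10.3% in replicate 1 and 7.22% in replicate 2, and this difference did not pass the test (adjusted p = 0.323, Fisher's exact test). Lrrc2 and Uchl3 were led by such forms with 42 of 54 and 42 of 48 gene reads for Lrrc2 and 33 of 40 and 45 of 50 for Uchl3. The Lrrc2 form kept the annotated protein of 371 codons, and the Uchl3 form met a stop after 23 codons against 230 in Uchl3-201. More exons at the 5′ end were found in Tmed2, a cargo receptor of the early secretory pathway, with 424 of 590 and 405 of 575 reads. Its 208 codons compare with 201 for Tmed2-201. Eno3, the enolase of muscle, had 165 such reads in each library of 3440 and 3692, and Cd36, the fatty acid transporter, 60 and 53. At the 3′ end, Mbnl2, a muscleblind splicing factor, had 140 of 194 and 155 of 208 reads, and Kcng2, a modifier subunit of potassium channels, 167 of 281 and 194 of 324. Cyhr1 ended in another last exon in 94 of 208 and 117 of 228 reads.

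Kept introns were rare and of low share, with a median of 5.56% over the 28 forms. Map7d1 had the most reads of them, 59 and 68. Srsf5, a splicing factor, kept an intron in 27 and 25 reads, at 23.1% and 19.4% of its gene. Kept introns were also seen in the highly expressed Myh6, in 47 and 27 reads, and in Atp5b, the beta subunit of ATP synthase, in 7 and 10. Introns removed from annotated exons had a higher median share, 20.8% over the 24 of 27 forms whose gene had at least 20 reads in each library. Csnk1g2, a casein kinase, had 90 of 127 and 106 of 147 reads for such a form, and Ptov1 92 of 213 and 111 of 220. Cnbp, a nucleic acid binding protein, had 44 and 63.

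Most forms held nothing new in any single intron. In 616 of 771 (79.9%) every intron was annotated for the gene. The introns of 1 annotated model were enough for 34 of these, 2 models had to be combined for 572, and 3 or more for 10. A new intron was held by 155 forms (20.1%), with 13.8% and 13.7% of member reads, and 18 of them held more than 1. The 43 forms that the rule left out also held new introns, so these percentages depend on the rule. There were 160 distinct new introns, of which 18 were shared by at least 2 forms.

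The name of the class was checked against the annotation. Of the 160 new introns, 101 joined splice sites of the same gene, 9 were annotated introns of another gene on the strand, 2 used a splice site of another gene, and 2 used an annotated transcript end. The remaining 46 had an end at no exon boundary of GENCODE M21, although the tables class these forms as built from known sites. They lay in 46 forms (5.97%) of 30 genes, with 1261 and 1322 reads, or 4.98% and 4.88% of member reads. For those forms the name does not hold against this annotation. In replicate 1, 43 of the 46 introns also had reads on models that the tables class as having a new splice site, and in replicate 2, 42. The class shifted between libraries for the same intron. In Hnrnpk, an RNA-binding protein, the intron chr13:58393775-58394059 had 242 reads on new combinations and 265 on new splice site models in replicate 1, but 531 and 31 in replicate 2. Summed over all classes its use was 95.1% of 546 reads and 96.4% of 591. Without the 46 forms, 725 were left with 2.79% of reads, and 15.03% of them held a new intron. That alternative was added after seeing the data.

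Several introns at no annotated boundary were the main choice of their gene. Where at least 20 reads in each library covered the intron or a rival that shares an end, the median use was 41.8% for 41 such introns and 9.78% for 89 introns between splice sites of the gene. Car14, a carbonic anhydrase of the cell surface, used chr3:95898908-95899223 in 98.0% of 351 and 98.3% of 293. Pdlim5, a Z-disc protein, used chr3:142304723-142312108 in 84.2% of 266 and 85.5% of 255. Qk, a splicing factor of the STAR family, used an acceptor 24 bases away in 75.7% of 247 and 77.0% of 309. Hacd1, of fatty acid elongation in muscle, used chr2:14044872-14045110 in 99.4% of 176 and 100% of 232. Use was low in Atp2a2, the calcium pump SERCA2, where chr5:122500814-122501563 was used by 8.21% of 6734 and 7.81% of 7225. Between annotated sites, Mybpc3, a myosin-binding protein of the A-band, used a new intron (chr2:91124019-91124383) in 155 of 155 and 157 of 162 reads, and Sept7 one in 97.5% of 202 and 97.5% of 201.

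Some forms reached into a neighbouring gene. The form of Chmp2a, a subunit of the ESCRT-III complex, had 7 and 6 reads and held 5 introns annotated for another gene. In replicate 1, 308 reads on each of these introns were on annotated models and 8 or 9 on new combinations. The Yjefn3 form, with 21 of 25 and 13 of 15 gene reads, held 2 such introns, used in 615 of 616 and 610 of 612 reads in replicate 1. Of those reads, 586 and 583 were on models classed as incomplete, which hold only part of an annotated chain. On each intron 22 were on new combinations and 0 on annotated models.

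**Figure D4:**
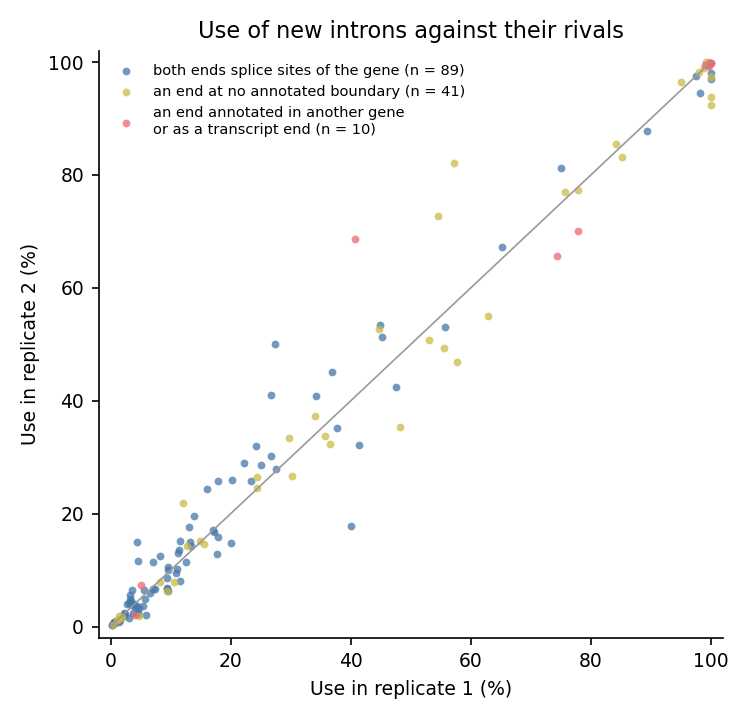
Use of 140 new introns as a percent of the reads on the intron or a rival sharing an end, in replicate 1 (x axis) and replicate 2 (y axis), coloured by where the ends stand in the annotation. Points follow the grey line of equal use, and introns with an end at no annotated boundary are spread over the whole range.

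Use of new introns was tested between the libraries with Fisher's exact test and Benjamini-Hochberg adjustment over all 49958 introns with enough reads, of which 2 (0.00400%) passed at 0.05. None of the 140 new introns tested passed, and 6 had an unadjusted p under 0.05. Use was over 50% in both libraries for 32 and under 10% in both for 51. Those over 50% include introns annotated for another gene, whose use counts reads on models of every class that hold them. In the Chmp2a form, chr7:13036661-13037620 had 308 of its 319 reads in replicate 1 on annotated models. The 2 such Yjefn3 introns had most of theirs on incomplete models.

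The same test was made on each form's share of its gene, over 9067 spliced models of annotated genes, of which 27 (0.298%) passed. Among the members, 1 of 716 passed and 30 had an unadjusted p under 0.05 (4.19%), against 501 of all models (5.53%). The share of annotated models that passed was 0.377% (23 of 6103), and 0 of 436 models with a new splice site passed.

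Forms with at least 5 reads in 1 library were nearly always seen in the other. Of 1256 and 1277 models of the class, 97.6% and 98.2% had at least 1 read in the other library and 71.8% and 69.2% at least 5. Annotated models had 99.4% in both directions and 91.1% and 89.2%. The minimum of 5 reads chose the members, so these counts are given for the class as a whole.

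The reading frame was followed in 679 forms from a start codon of an annotated coding model. Another 92 forms were not assessed, 61 of them because they held no annotated start codon. Percentages below are of the forms assessed. In 277 (40.8%) the coding sequence was that of an annotated protein. In 256 (37.7%) it ran from an annotated start to an annotated stop through a new combination of codons. In 96 (14.1%) it met a stop more than 50 bases before the last junction, called early here, and in 50 (7.36%) another stop. Early stops are known as a signal for decay of the RNA, which was not measured. The forms with an early stop had 7.27% and 7.11% of the reads assessed and those with a new frame 57.1% and 58.0%. In genes with at least 20 reads in each library, their median shares were 7.45% and 13.0%. Forms with another acceptor gave 7777 of the 12149 new frame reads in replicate 1 and 8457 of 13166 in replicate 2. Myh6 form 1 alone, which adds the CAG codon, gave 4220 and 4703 of them. When the longest frame from any annotated start was taken instead, an alternative added after seeing the data, 88 forms had an early stop.

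**Figure D5:**
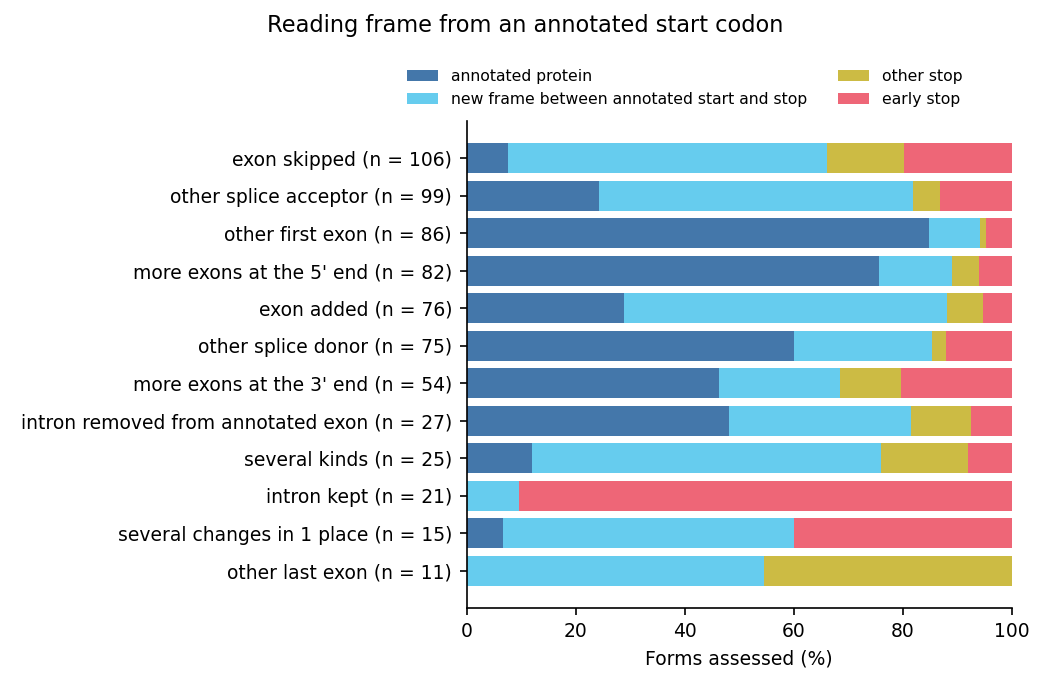
Percent of forms (x axis) with each outcome of the reading frame, by kind of difference (y axis, with the number assessed; kinds with at least 10). Among forms assessed, kept introns end almost wholly in early stops, and first exon changes mostly leave annotated proteins.

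The outcome went with the kind of difference. Of the forms assessed, an annotated protein was left by 73 of 86 with another first exon (84.9%) and 62 of 82 with more exons at the 5′ end (75.6%). A further 29 forms with another first exon and 3 with more exons at the 5′ end were not assessed. An early stop was met by 19 of 21 forms with a kept intron (90.5%), by 21 of 106 with a skipped exon (19.8%) and by 4 of 76 with an added exon (5.26%). New frames between annotated start and stop were found in 45 of 76 added exon forms, all longer than the reference, and in 62 of 106 skipped exon forms, all shorter. The Myh6, Srl and Ctbp1 forms each had 1 codon more, at 1939, 473 and 430 codons against 1938, 472 and 429. Eno1 kept 434 codons with the other exon. Phb2 had 297 codons against 299. Idh3b had 380 against 384 and ended at another stop. In Hnrnpk the 4 forms met early stops, at 368 codons in the first and second and 344 in the others. All 4 hold the Hnrnpk intron given above, which has an end at no annotated boundary. The Sept7 form met a stop after 25 codons from the start used, against 437 in Sept7-201, and the choice of start did not alter it. The Oaz1 and Oaz2 forms were not assessed, for the frame shift named above.

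Genes were also taken in lists by role. Of 5162 genes with at least 20 reads in each library, 538 (10.4%) had a member form, and this rose with the gene's reads, from 6.11% of genes with 40 to under 100 reads in both libraries together to 10.8%, 18.6% and, at 1000 or more, 24.6%. RNA-binding splicing regulators had a form in 12 of 30 detected genes, with Mbnl2, Hnrnpk, Qk and Srsf5 described above. Actin cytoskeleton and adhesion genes had one in 7 of 23 (30.4%), among them Itgb1 and Fermt2, the kindlin 2 that binds integrins, with 46 of 201 and 52 of 221 reads in a form that has an intron end at no annotated boundary. Glycolysis and glycogen genes had 7 of 24 (29.2%), including Eno1, Eno3 and Gbe1. Sarcomere and Z-disc genes had 8 of 32, with Myh6 alone holding 12 forms, and calcium handling 5 of 21 (23.8%). Fatty acid oxidation had 5 of 27 (18.5%), mitochondrial dynamics, import and ribosome 6 of 35 (17.1%) and the citric acid cycle 4 of 24 (16.7%). Oxidative phosphorylation, of high expression, had 7 of 74 (9.46%), and extracellular matrix 1 of 22 (4.55%). The lists differ in gene length, exon number and depth, whose part in these shares was not tested.

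Within those lists the forms differed in weight. In the citric acid cycle, Idh3b held 569 of the 624 and 636 of the 710 member reads, and the Ogdh forms, of the oxoglutarate dehydrogenase, had 17 and 26 reads and 19 and 21, with another first exon and the annotated protein of 1023 codons. In fatty acid oxidation, Eci2, an enoyl-CoA isomerase, used an acceptor 98 bases away in 47 of 343 and 58 of 381 reads. From the start codon of Eci2-211 it met a stop after 19 codons, and from another annotated start it gave a protein of 358. In mitochondrial dynamics, Opa1, the fusion GTPase of the inner membrane, had 56 of 130 and 55 of 152 reads for a form with more exons at the 3′ end and 997 codons, which led the gene.

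Myh6 shows how 1 gene gathers forms. Its 12 forms had from 7 and 5 reads to 4220 and 4703, out of 26832 and 28537 gene reads. Forms 1, 2, 7, 8, 9 and 10 all held the upstream acceptor with the CAG. Form 3 skipped a noncoding exon of 133 bases by a new intron (chr14:54965476-54966553) in 66 and 82 reads, and forms 4 and 5 began at another first exon, in 57 and 47 and in 39 and 53 reads. The introns of forms 4 and 5 have an end at no annotated boundary, as do those of forms 8, 9 and 11, so these are among the 46 forms for which the class name does not hold. Forms 3 to 5 left the protein of 1938 codons. Ktn1, the kinesin receptor kinectin, had 5 forms with 6 to 8 reads in replicate 1 and 6 to 13 in replicate 2. Its first form added 87 bases, giving 1299 codons against 1270.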

How the data were processed

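The deposited tables hold the count of reads per transcript model, which the authors made per library from filtered alignments on mm10 with GENCODE M21, per the text deposited with each file, with models named by TALON per the file headers. Aligner, filters and tool versions were not given in the sources used here. Exon numbers and lengths are from the same tables. Chains were matched by chromosome, strand and introns. Events, frames and exons were computed with Python 3.11.15 (pandas 2.3.3, SciPy 1.17.1), and TMM factors with edgeR 4.0.16. Shares leave out genomic-class reads. Fisher's exact tests were two-sided, on models with at least 10 reads in all and 20 gene reads in each library, with adjustment over all models. Models of unannotated genes were left out, since their identifiers differ between libraries. Intervals are exact at 95% and cover counting error. Members and lists were chosen with earlier results of these data known. Named were the 10 forms with the most reads, the 10 with the highest share, 3 per kind, 2 per list, those whose share differed, the genes with most forms and those at the edge of the rule; Atp2a2, Atp5b, Chmp2a, Dctn1, Hacd1, Mybpc3, Nexn, Opa1, Qk, Srsf5, Trim55, Yjefn3 and the introns named were added after their values were seen. Alternatives changed the read minimums, the shift, the reads counted and the test. The share test was tested on simulated data. The form that passed the share test is not reported here.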

Additional observations from a re-analysis of the deposited data

How the results depend on the processing

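The number of forms followed the minimum of reads: 1379 at 3, 356 at 10 and 169 at 20. With the minimum asked of 1 library alone it was 1160 to 1187. The number of forms whose share differed between libraries was 1, and it was 0 with genomic-class reads counted, 0 with no minimum of reads, 2 with at least 30 reads in both libraries together, and 3 in an exact binomial test of the level given library totals and 3 given TMM totals. The percent of reads on the forms was 2.84 with genomic-class reads in the total and 3.08 with no small shift left out, and 2.92 to 2.95 in single libraries. The median share was 13.7% over annotated, new combination and new splice site reads, 8.75% in genes with at least 50 reads, and 12.1% to 12.6% in single libraries. Forms with a new intron were 15.4% at a minimum of 20 reads. Exons with a length that is a multiple of 3 were 72.9% in coding sequence and 71.4% at a minimum of 20 reads, against 63.3%. Among alternatives chosen after seeing the data, leaving out the forms with an end at no annotated boundary gave 2.79% of reads, 15.03% with a new intron and 0 differing shares, and leaving out those that differ only by annotated sites up to 12 bases apart gave 1.99% of reads. The cause was not tested. No paired analysis was possible because there is 1 group. With 2 libraries, forms near 5 reads have wide counting error, and the spread between animals was not measured.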
